A study of Mus musculus with 12 samples.

Results

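The genes described here encode the proteasome and the factors that assemble and activate it, measured in the livers of fasted and refed mice with and without the glucose transporter Slc2a2. They were taken by name: every gene whose symbol on the array begins with Psma, Psmb, Psmc, Psmd, Psme, Psmf or Psmg followed by a number. This gave 49 of the 18194 genes tested. Of these, 47 are proteasome genes. The other 2 matched by spelling alone, namely Psmc3ip, a factor of meiotic recombination, and Psme3ip1, a protein that binds the activator subunit encoded by Psme3. The symbol Psme2 is not analysed here, because its probe set carries more than 1 gene symbol.

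The proteasome is the protease that breaks down proteins tagged with ubiquitin. Its barrel-shaped core is a stack of outer alpha rings, which gate the entry, and inner beta rings, in which Psmb5, Psmb6 and Psmb7 carry the cutting sites. A regulatory particle caps the barrel: its ring of ATPases (the Psmc genes) unfolds the substrate, and its non-ATPase subunits (most Psmd genes) bind ubiquitin chains and remove them. In liver, fasting is known as a state of protein breakdown and refeeding as one of protein synthesis.

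Each of the 12 arrays carried liver RNA pooled from 3 mice of the strain SV129XC57Bl/6, and there were 3 arrays in each of 4 groups. The groups were control mice fasted, control mice fasted and then refed, LG2KO mice fasted, and LG2KO mice fasted and then refed. LG2KO mice were treated with tamoxifen. The labels do not spell out LG2KO, which is read here as loss of Slc2a2 (Glut2) in liver, nor the Cre driver, the age of the mice or the length of the fast. No control array is labelled with tamoxifen, and the effects of the drug and of the genotype therefore cannot be told apart. The LG2KO fasted arrays are called fasted/refed in 1 label and fasted in their titles and diet labels, and the latter were used. The spread that enters each p-value is that between pools of mice.

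The values were log2 expression levels, and a difference of 1 is a change of 2-fold. The level of Slc2a2 was at most 11.30 and at least 10 on the 6 control arrays and 3.56 to 4.13 on the 6 LG2KO arrays, so the targeted gene followed the labels. Hepatocyte markers averaged 13.37 to 13.76 per array. In control fasted replicate 3 the exocrine pancreas gene Ctrb1 stood at 9.18, against at most 5.51 elsewhere. Correlations between arrays of a group were at least 0.983. Control refed replicate 1 and LG2KO fasted replicate 3 stood apart from the other arrays of their groups, and results that rest on them are given with and without them. The lowest correlation within LG2KO fasted, 0.983, was shared by replicates 1 and 3, and replicate 1 was kept throughout those fits. A separate check of same-numbered arrays ran from -0.46 to 0.77 and is not on the scale of the correlations above. In it LG2KO fasted replicate 1 correlated with control refed replicate 1 at 0.75. Replicate 3 of the same 2 groups gave 0.77. The fits without the arrays that stood apart may not be free of such shifts, which was not tested. In whole tissue, fewer cells of a type and less RNA per cell cannot be told apart.

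For 46 of the 49 genes the probe set used was brighter than the median of all genes. Brightness depends on the probe as well as on the transcript, so levels are compared here between arrays and not between genes.

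The DNA just upstream of the genes is shown for the 4 members that rose on refeeding in both genotypes (Psmc2, Psmc4, Psmc5 and Psmd2) and for 3 further members that passed a refeeding test and hold a match to the antioxidant response element (Psmb5, Psmb6 and Psmd9). That element, with the core TGACNNNGC, is bound by the transcription factors Nfe2l1 and Nfe2l2, which are known to drive proteasome genes. The CCAAT box is bound by the factor NF-Y. Each sequence is the 100 bases before the gene's start, 5′ to 3′ on the gene's strand, from the RefSeq annotation of mouse build GRCm38.p6, and capitals mark a match on that strand.
Psmc2 (ATPase; chr5:21785175-21785274, plus strand, the first of 2 annotated starts): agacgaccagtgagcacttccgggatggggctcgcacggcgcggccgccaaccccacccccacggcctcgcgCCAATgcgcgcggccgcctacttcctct
Psmc4 (ATPase; chr7:28050093-28050192, minus strand): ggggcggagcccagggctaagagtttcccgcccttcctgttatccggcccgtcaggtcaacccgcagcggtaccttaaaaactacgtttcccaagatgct
Psmc5 (ATPase; chr11:106256085-106256184, plus strand): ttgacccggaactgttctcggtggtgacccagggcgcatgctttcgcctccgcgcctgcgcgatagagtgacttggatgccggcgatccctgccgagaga
Psmd2 (non-ATPase; chr16:20651552-20651651, plus strand): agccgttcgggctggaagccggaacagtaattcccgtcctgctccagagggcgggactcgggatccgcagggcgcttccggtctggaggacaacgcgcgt
Psmb5 (beta ring; chr14:54617996-54618095, minus strand): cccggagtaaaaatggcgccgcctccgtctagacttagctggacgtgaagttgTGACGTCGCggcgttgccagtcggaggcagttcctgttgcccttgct
Psmb6 (beta ring; chr11:70525257-70525356, plus strand): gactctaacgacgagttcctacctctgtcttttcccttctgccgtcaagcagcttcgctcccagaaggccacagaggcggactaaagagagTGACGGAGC
Psmd9 (assembly chaperone; chr5:123228090-123228189, plus strand): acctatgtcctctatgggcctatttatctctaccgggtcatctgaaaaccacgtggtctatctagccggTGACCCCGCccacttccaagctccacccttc

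The match to TGACNNNGC begins 47 bases before the start of Psmb5, 31 before that of Psmd9 and 9 before that of Psmb6. In Psmc2 a CCAAT box begins 28 bases before the start. RefSeq windows of 300 bases, 250 before and 50 after the start, were at hand for 41 of the 49 genes. On either strand, TGACNNNGC was found in 6 of the 41 (14.6%), in Psmc6, Psmd12 and Psme4 besides those shown, and in 14% of the windows of 27025 genes. The CCAAT box was found in 16 of the 41 (39%), against 41.1% of all windows. The members held these letters about as often as other genes did, and a match in a window is not evidence of binding.

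Averaged over the genotypes, refeeding raised 17 of the 49 genes and lowered 1, Psmd9, at an adjusted p below 0.05 (limma, Benjamini-Hochberg over 18194 genes). Of all genes, 7.86% rose and 5.77% fell, which makes 13.6% that passed in either direction. The 17 were 34.7% of the members. Among the 9097 genes brighter than the median, a closer match to the members' levels, 14.4% rose. The median difference was 0.21 over the members and 0 over all genes, and 44 of the 49 differences were positive. Without the arrays that stood apart, 21 members rose and 1 fell, against 12.2% and 13% of all genes, the median was 0.17 and 37 were positive. With 1 array left out at a time, 15 of the 18 passed every time, while Psma1 and Psmb10 missed the threshold in 5 of the 12 fits and Psmb4 in 9. The members that rose lay in every structural class of the particle, but not evenly. Of the 6 ATPases 4 rose, of the 11 non-ATPases 4, of the 7 beta subunits 5, and of the 7 alpha subunits 1.

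**Figure D1:**
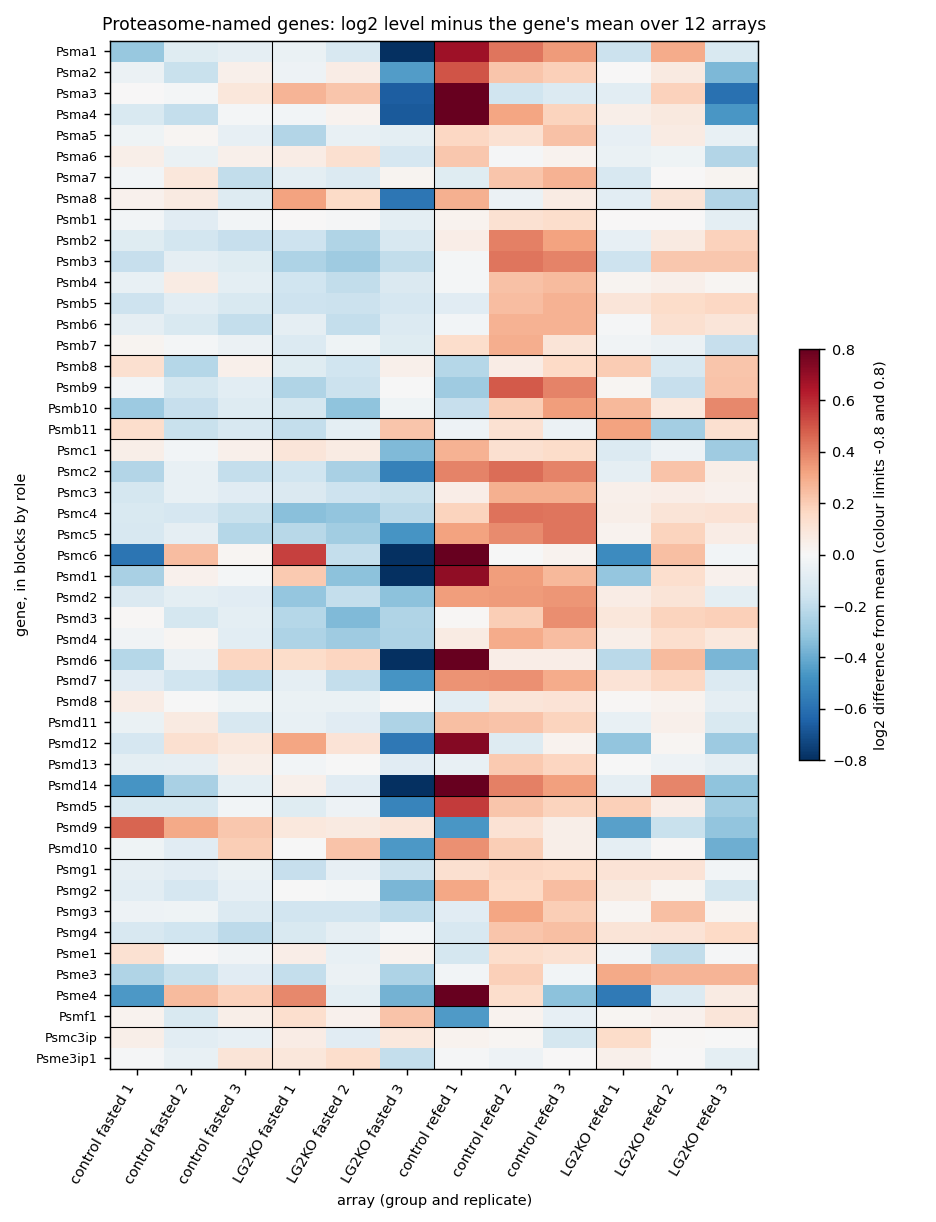
Deviation of each of the 49 genes (rows, in blocks by role) from its own mean over the 12 arrays (columns, by group), in log2 units. Control refed arrays are above the mean for most rows, and LG2KO fasted replicate 3 is lowest of the 12 arrays for 24 of the genes (49%, against 13.9% of all genes). The row of Psmd9 is lower on the refed than on the fasted arrays of each genotype.

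The ATPase ring unfolds substrates and feeds them into the barrel. Psmc5 had levels of 11.38, 11.44 and 11.49 on the control refed arrays and 10.93, 10.99 and 10.83 on the control fasted ones. In LG2KO its levels were 11.09, 11.24 and 11.12 refed against 10.84, 10.78 and 10.59 fasted. Refed and fasted arrays did not overlap in either genotype, and every control refed array lay above every LG2KO refed array. The difference was 0.52 ± 0.08 in control (SE, n = 3 against 3, 1.43-fold, adjusted p = 0.00189) and 0.41 ± 0.08 in LG2KO (1.33-fold, adjusted p = 0.00796).

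Psmc2 had 11.60, 11.65 and 11.60 in control refed and 10.97, 11.14 and 11.01 in control fasted liver. In LG2KO it had 11.13, 11.43 and 11.25 refed and 11.04, 10.94 and 10.66 fasted. The 3 control refed arrays were the highest of the 12, and refed and fasted arrays of a genotype did not overlap. Its refeeding difference was 0.58 ± 0.10 in control (adjusted p = 0.00439) and 0.39 ± 0.10 in LG2KO (adjusted p = 0.0396). Of the 8 members that passed in control, this was the largest difference.

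Psmc4 had 10.63, 10.89 and 10.88 in control refed, 10.33, 10.32 and 10.28 in control fasted, 10.50, 10.56 and 10.57 in LG2KO refed and 10.12, 10.14 and 10.24 in LG2KO fasted liver. All refed arrays lay above all fasted arrays. The differences were 0.49 ± 0.08 in control (adjusted p = 0.00302) and 0.38 ± 0.08 in LG2KO (adjusted p = 0.0146). A second, dimmer probe set of Psmc4 gave 0.18 ± 0.08 averaged over the genotypes and did not pass (adjusted p = 0.263 over all probe sets). Psmc3 rose by 0.30 ± 0.07 in control (adjusted p = 0.0244) and had a difference of 0.20 ± 0.07 in LG2KO (adjusted p = 0.132). The remaining ATPases differed: Psmc1 gave 0.04 ± 0.08 averaged over the genotypes, and Psmc6 gave 0.32 ± 0.28, with adjusted p above the threshold for both.

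**Figure D2:**
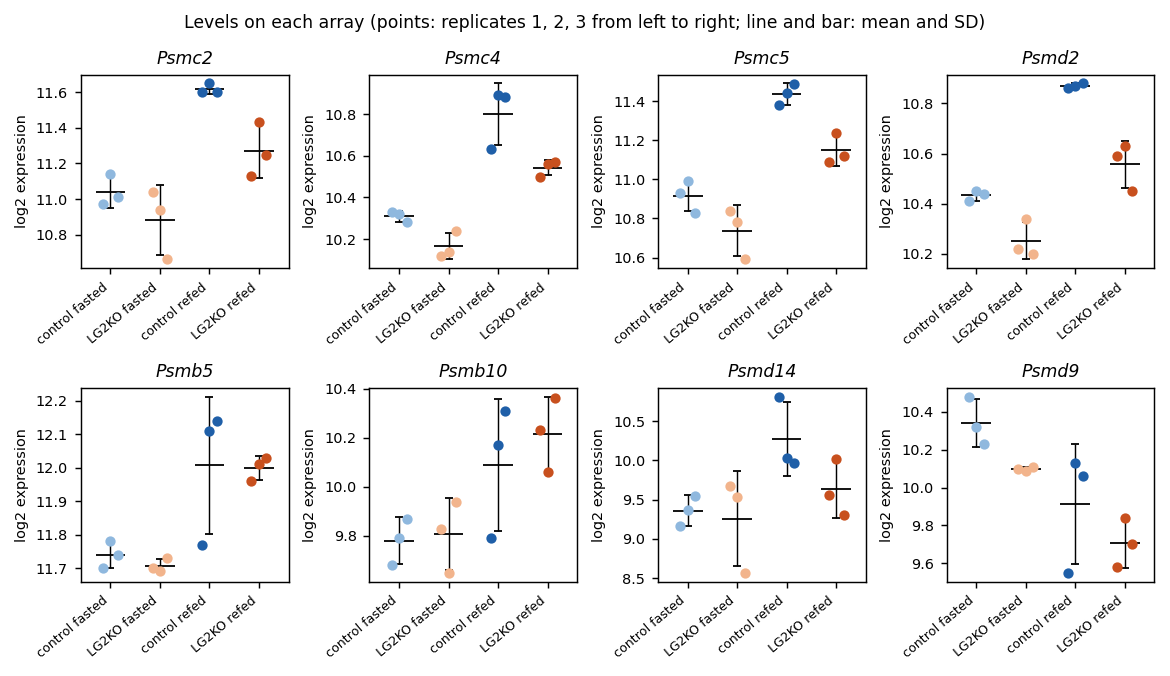
Log2 level of selected members on each of the 12 arrays (points), grouped by genotype and feeding state, with the group mean. Psmc4, Psmc5 and Psmd2 separate refed from fasted arrays within each genotype, and Psmd9 is lower after refeeding.

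The non-ATPase subunits of the regulatory particle hold the ubiquitin receptors and the scaffold. Psmd2, a scaffold subunit of the base, varied little within groups. Its levels were 10.86, 10.87 and 10.88 in control refed, 10.41, 10.45 and 10.44 in control fasted, 10.59, 10.63 and 10.45 in LG2KO refed, and 10.22, 10.34 and 10.20 in LG2KO fasted liver. The groups did not overlap except that LG2KO refed replicate 3 equalled the highest control fasted array to the second decimal. The refeeding difference was 0.44 ± 0.07 in control (adjusted p = 0.0029) and 0.30 ± 0.07 in LG2KO (adjusted p = 0.025).

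Psmd4, a ubiquitin receptor, had 11.71, 11.80 and 11.75 in LG2KO refed and 11.42, 11.38 and 11.42 in LG2KO fasted liver, a difference of 0.34 ± 0.07 (adjusted p = 0.00882). Its control arrays read 11.73, 11.96 and 11.91 refed and 11.64, 11.68 and 11.58 fasted, a difference of 0.24 ± 0.07 (adjusted p = 0.0607). They did not overlap either. Psmd3, a scaffold subunit of the lid, rose by 0.43 ± 0.10 in LG2KO (adjusted p = 0.0174), and in control the difference was 0.26 ± 0.10 (adjusted p = 0.158). Psmd7, the partner of the lid's deubiquitinase, rose by 0.49 ± 0.11 in control (adjusted p = 0.0203), with 0.30 ± 0.11 in LG2KO (adjusted p = 0.154).

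The deubiquitinase itself, Psmd14, had the largest refeeding difference of the 49 genes in control liver and did not pass. Its levels were 10.81, 10.03 and 9.96 in control refed and 9.16, 9.37 and 9.55 in control fasted liver. In LG2KO they were 9.56, 10.02 and 9.31 refed and 9.67, 9.54 and 8.57 fasted. The control groups did not overlap, the LG2KO groups did, and the highest and lowest values came from the arrays that stood apart. The difference was 0.91 ± 0.29 in control (adjusted p = 0.0998). Without those arrays it was 0.64 ± 0.18 and passed (adjusted p = 0.0378). Psmd11, a lid subunit that clamps the regulatory particle to the core, gave 0.25 ± 0.07 in control (adjusted p = 0.0724).

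In the core particle 5 beta ring genes and 1 alpha ring gene passed. In control liver all 7 differences of either ring were positive, with medians of 0.27 in the beta and 0.21 in the alpha ring, and a difference between the rings was not tested. On control refed replicate 1, all 7 beta ring genes were lower than in the rest of the group and 5 of the 7 alpha ring genes higher. There 64.9% of all genes were lower. On LG2KO fasted replicate 3, 5 of the 7 alpha ring genes were lower, while the beta ring genes differed by only -0.08 to 0.08. Averaged over the genotypes, Psmb2, Psmb3, Psmb4, Psmb5 and Psmb6 rose, while Psmb1 and Psmb7 gave 0.07 ± 0.04 and 0.09 ± 0.05. Psmb5, the subunit with chymotrypsin-like activity, had 11.77, 12.11 and 12.14 in control refed, 11.70, 11.78 and 11.74 in control fasted, 11.96, 12.01 and 12.03 in LG2KO refed and 11.70, 11.69 and 11.73 in LG2KO fasted liver. The only refed array inside the fasted range was control refed replicate 1. The averaged difference was 0.28 ± 0.06 (adjusted p = 0.00752), and without the arrays that stood apart it was 0.34 ± 0.04 (adjusted p = 8.35e-05).

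Psmb6, which carries the caspase-like site, rose by 0.31 ± 0.08 in control (adjusted p = 0.0482). Its control refed levels of 11.63, 11.93 and 11.93 lay above the fasted ones of 11.58, 11.53 and 11.46. Psmb2 rose by 0.40 ± 0.09 in control (adjusted p = 0.0234), from 10.85 ± 0.04 fasted to 11.26 ± 0.18 refed (SD, n = 3). In the alpha ring only Psma1 passed, with 0.49 ± 0.13 averaged over the genotypes (adjusted p = 0.0295). It did not pass with the mean of its 4 probe sets, and across the alternative fits its difference ran from 0.10 to 0.56. Psma3 and Psma6 gave 0.03 ± 0.21 and -0.03 ± 0.06.

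The inducible beta subunits replace the constitutive catalytic ones in the immunoproteasome, which immune cells and cells exposed to interferon carry. Psmb10 had 9.79, 10.17 and 10.31 in control refed, 9.68, 9.79 and 9.87 in control fasted, 10.23, 10.06 and 10.36 in LG2KO refed, and 9.83, 9.65 and 9.94 in LG2KO fasted liver. The LG2KO groups did not overlap and the control groups did, through control refed replicate 1. Psmb10 rose by 0.36 ± 0.09 averaged over the genotypes (adjusted p = 0.0233). Psmb8 gave 0.09 ± 0.10 (adjusted p = 0.669). Psmb9 gave 0.22 ± 0.12 (adjusted p = 0.339) with all arrays and 0.38 ± 0.08 (adjusted p = 0.00466) without the pair that stood apart.

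Assembly factors and activators did not follow 1 pattern. Psmd9, a chaperone that helps to build the ATPase ring, was the only member that fell. Its levels were 9.55, 10.13 and 10.06 in control refed, 10.48, 10.32 and 10.23 in control fasted, 9.58, 9.84 and 9.70 in LG2KO refed, and 10.10, 10.09 and 10.11 in LG2KO fasted liver. Every refed array lay below every fasted array of its genotype. It fell by 0.41 ± 0.10 averaged over the genotypes (adjusted p = 0.0123), and within the genotypes by 0.43 ± 0.14 and 0.39 ± 0.14, neither of which passed. All 3 of its probe sets fell, the other two by 0.41 and by 1 on the log2 scale.

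The other chaperones of the ATPase ring, Psmd5 and Psmd10, gave 0.31 ± 0.11 and 0.05 ± 0.13 and did not pass. Of the 4 chaperones of the core particle, Psmg1 rose by 0.21 ± 0.05 (adjusted p = 0.0137). The others, Psmg2, Psmg3 and Psmg4, gave 0.22 to 0.24 and did not pass. Psme3, the subunit of a nuclear activator that works without ATP, had 8.84, 8.81 and 8.81 in LG2KO refed against 8.35, 8.49 and 8.29 in LG2KO fasted liver, with 8.52, 8.73 and 8.52 against 8.30, 8.36 and 8.45 in control. The LG2KO refed arrays were the highest of the 12. The difference was 0.44 ± 0.10 in LG2KO (adjusted p = 0.0157) and 0.22 ± 0.10 in control (adjusted p = 0.267). Psme1, an activator subunit induced by interferon, gave -0.04 ± 0.06, Psme4, an activator of the core particle, gave 0.03 ± 0.21, and Psmf1, which encodes an inhibitor of the core particle in vitro, gave -0.11 ± 0.09.

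**Figure D3:**
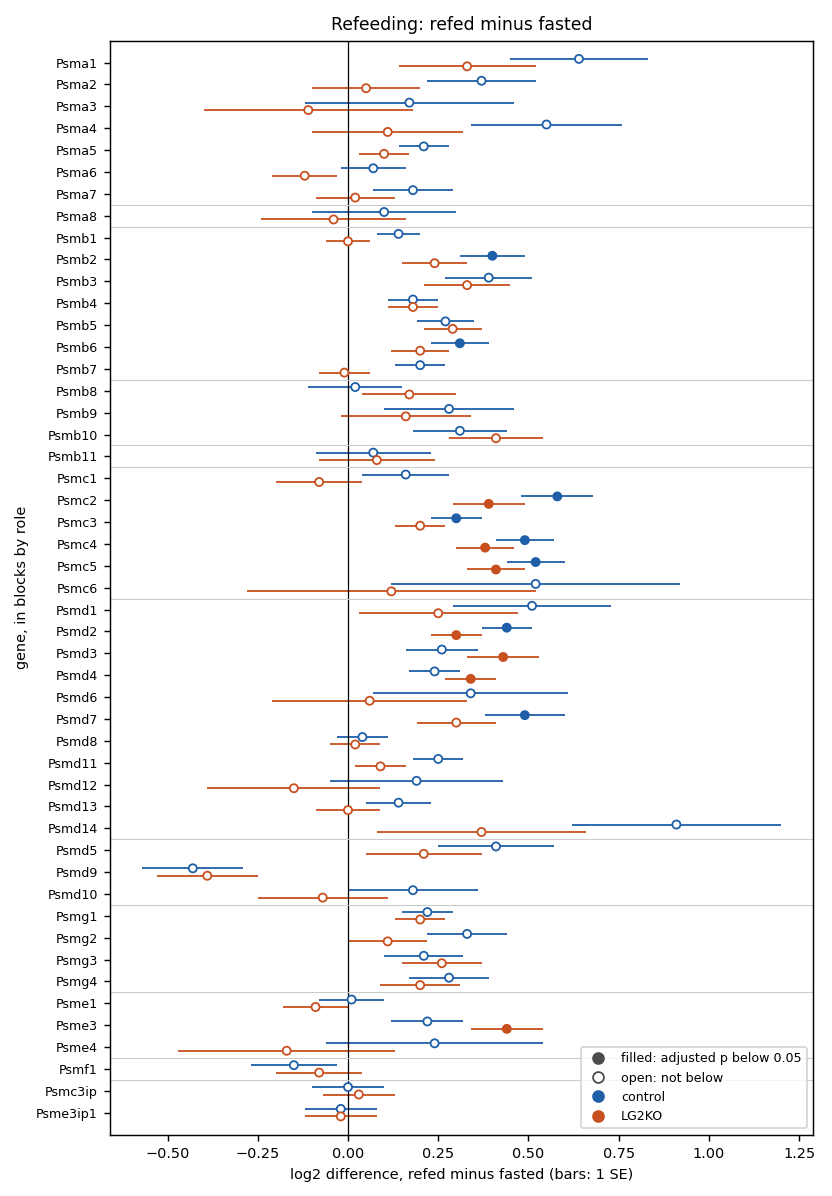
Refed minus fasted difference (log2, bars 1 SE) of each member in control and in LG2KO liver, in blocks by role. Filled points passed at an adjusted p below 0.05 and open points did not. Differences are positive for 46 members in control and 36 in LG2KO, and Psmd9 is at the negative end in both.

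In control liver alone, 8 members rose (Psmb2, Psmb6, Psmc2, Psmc3, Psmc4, Psmc5, Psmd2 and Psmd7) and 0 fell, which is 16.3% of the members against 3.29% of all genes that rose, 3.17% that fell and 6.06% of the brighter genes that rose. At an unadjusted p below 0.05, 28 were higher and 1 lower, against 8.48% and 8.22% of all genes. The refed arrays lay wholly above the fasted ones for 24 members, against 9.64% of all genes. In LG2KO liver 7 rose (Psmc2, Psmc4, Psmc5, Psmd2, Psmd3, Psmd4 and Psme3) and 0 fell, which is 14.3% against 4.66% of all genes that rose, 2.4% that fell and 8.89% of the brighter genes that rose. At an unadjusted p below 0.05, 17 were higher and 1 lower, against 10.8% and 7.39% of all genes. The arrays did not overlap, with refed higher, for 17 members, against 14.1% of all genes.

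The refeeding comparisons of the genotypes share no arrays, but they come from 1 fit with a shared estimate of the spread. Psmc2, Psmc4, Psmc5 and Psmd2 passed in both, which is 50% of the control list and 57.1% of the LG2KO list. The overlap over all genes is not given here, so these shares have no background beside them. With the mean of all probe sets of a gene, Psmc2 and Psmd2 missed the threshold in both genotypes. Psmb6 and Psmd7 also missed it in control with these means, and Psmc4, Psmd4 and Psme3 in LG2KO. Psmc2, Psmc4, Psmc5 and Psmd2 in control, and Psmc5 and Psmd4 in LG2KO, passed whichever of the 12 arrays was left out. In control, Psmb2, Psmc3 and Psmd7 missed the threshold when any control array but refed replicate 1 was left out, and Psmb6 passed in 1 of the 12 fits that left out an array, the one without control refed replicate 1. In LG2KO, Psmc4, Psmd2, Psmd3 and Psme3 each missed it without 3 or 4 of the LG2KO arrays, and Psmc2 missed it in 8 of the 12 fits and without both arrays that stood apart. Leaving out LG2KO refed replicate 2 left 2 LG2KO calls, and leaving out control refed replicate 1 gave 13, both without the share of all genes. Without both arrays that stood apart, 20 members rose in control and 41 were positive, while 6.33% of all genes rose. In LG2KO 12 rose and 2 fell and 30 were positive, while 7.74% of all genes rose and 9.78% fell. The members that fell were Psmd9 and the lid subunit Psmd12 (by 0.41 ± 0.13, adjusted p = 0.0432). With all arrays Psmd12 gave -0.15 ± 0.24 in LG2KO (adjusted p = 0.866). Its LG2KO fasted levels were 9.68, 9.47 and 8.79, so its call rests on leaving out replicate 3.

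Between genotypes, 0 members passed in the refed state, where 0.379% of all genes passed in either direction. The members' differences leaned to lower levels in LG2KO: 41 of 49 were negative, against 8020 of 18194 genes, and the median was -0.18 against 0.02. At an unadjusted p below 0.05, 16 members were lower and 1, Psme3, was higher, against 2.94% of all genes that were lower and 6.19% that were higher. The LG2KO refed arrays lay wholly below the control refed ones for 18 members, against 5.19% of all genes. Without the arrays that stood apart, the median was -0.21, 44 members were negative and 0 passed. In that fit 0.159% of all genes were higher and 0.126% lower in LG2KO. The limma array weights with all arrays called 4 members, a count given without the share of all genes. These differences share the control refed arrays with the refeeding response of control liver, so they are not independent of it.

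The members with the smallest p in that comparison were Psmd2 and Psmb7. The Psmd2 levels given above, 10.86 to 10.88 in control refed and 10.45 to 10.63 in LG2KO refed liver, differ by -0.31 ± 0.07 (adjusted p = 0.121). Psmb7, which carries the trypsin-like site, had 12.16, 12.31 and 12.12 in control refed and 11.99, 11.97 and 11.83 in LG2KO refed liver. Its groups did not overlap, and the difference was -0.27 ± 0.07 (adjusted p = 0.138). For Psmc5 it was -0.29 ± 0.08, with a 95% interval from -0.46 to -0.11 (adjusted p = 0.212). Members that stayed close between genotypes after refeeding included Psmb5, with -0.01 ± 0.08 and a 95% interval from -0.19 to 0.18.

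**Figure D4:**
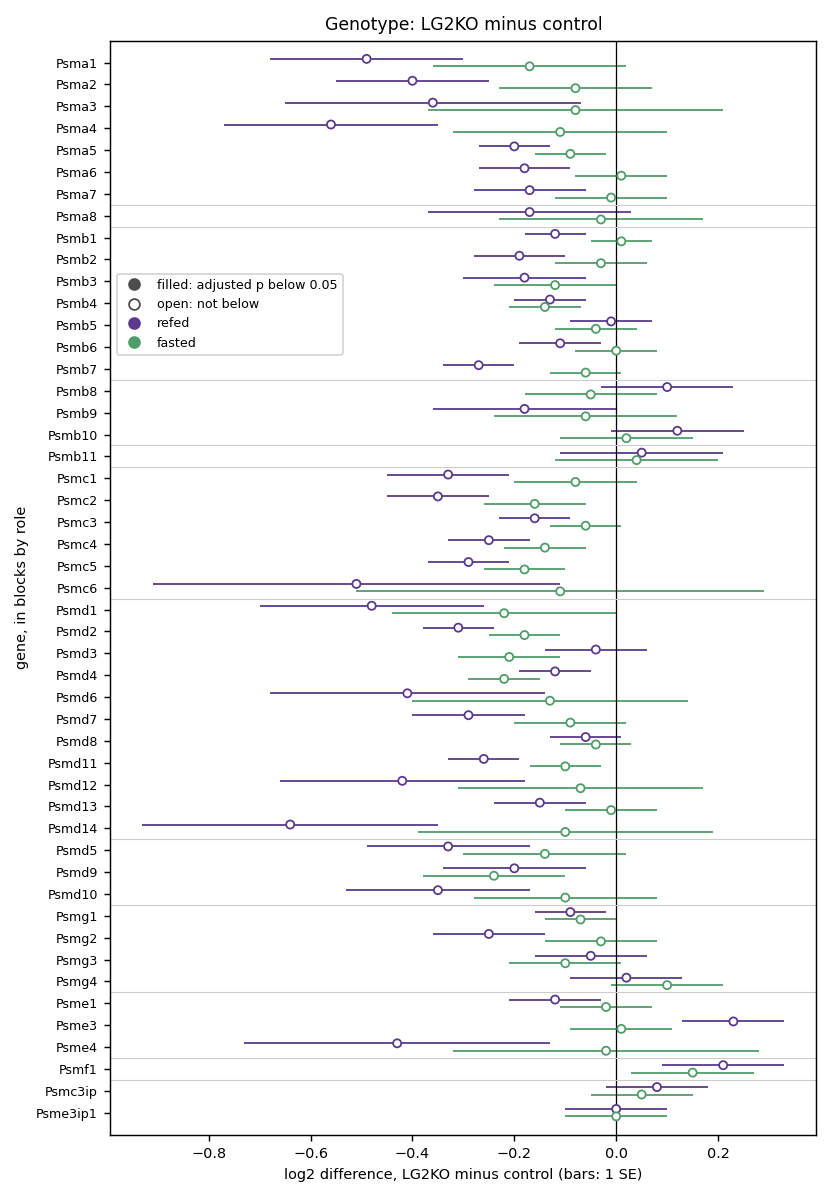
LG2KO minus control difference (log2, bars 1 SE) of each member in the refed and in the fasted state, in blocks by role. All points are open because 0 members passed at an adjusted p below 0.05; 41 of the 49 refed and 39 of the 49 fasted differences are negative.

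In the fasted state 0 members passed either, where 0.396% of all genes did. At an unadjusted p below 0.05, 3 members were lower, against 2.62% of all genes. The median was -0.07 against 0 over all genes, and 39 of the 49 differences were negative. LG2KO arrays lay wholly below control arrays for 8 members, against 6.11% of all genes. The lean rested on LG2KO fasted replicate 3: without the arrays that stood apart the median was -0.01 and 25 were negative. Psmd4 had the smallest p, with levels of 11.42, 11.38 and 11.42 in LG2KO and 11.64, 11.68 and 11.58 in control fasted liver, which did not overlap. Its difference was -0.22 ± 0.07 (adjusted p = 0.405).

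Averaged over the feeding states, Psmd2 was lower in LG2KO by 0.25 ± 0.05 (adjusted p = 0.0431), as were 0.28% of all genes (1.02% passed in either direction). It was the only member to pass, and it missed the threshold when any array but control refed replicate 1 was left out. Without both arrays that stood apart, 3 other members passed: Psmb4, Psmc4 and Psmd4, lower by 0.19 ± 0.04, 0.26 ± 0.05 and 0.21 ± 0.04. In that fit 0.451% of all genes were lower in LG2KO and 0.841% were higher.

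The test of whether the refeeding response differed between genotypes called 0 members and 1 gene in all (0.0055% of those tested). The refed minus fasted difference was lower in LG2KO than in control for 36 of the 49 members. The median was -0.13 against 0.02 over all genes. For a gene that falls on refeeding, a lower value means a larger fall in LG2KO. At an unadjusted p below 0.05 only Psmb7 differed, by -0.21 ± 0.09, while 1.2% of all genes had a lower value in LG2KO by that measure. Without the arrays that stood apart, 42 members had a lower value in LG2KO, the median was -0.20 and 0 passed. For Psmc5 the difference of responses was -0.10, with a 95% interval from -0.35 to 0.14, and for Psmd14 it was -0.54, with an interval from -1.45 to 0.36. The members called in 1 genotype alone are thus not shown to respond differently in the other.

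Averaged per array as deviations from each gene's own mean, the 47 proteasome genes stood at 0.22, 0.21 and 0.19 in control refed and at -0.03, 0.07 and -0.05 in LG2KO refed liver. They stood at -0.09, -0.05 and -0.05 in control fasted and at -0.04, -0.09 and -0.29 in LG2KO fasted liver. The control refed arrays lay above the other 9, and the lowest value belonged to LG2KO fasted replicate 3.

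Within the particle, genes shifted in opposite directions on the arrays that stood apart. On control refed replicate 1, compared with the other two arrays of its group, 29 of the 49 members were lower (59.2%), against 64.9% of all genes. All 7 beta ring genes, all 3 inducible ones and Psmb11 were among them, with 4 of the 6 ATPases, 5 of the 11 non-ATPases and 2 of the 7 alpha ring genes. On LG2KO fasted replicate 3, against its own group, 20 members were higher (40.8%), against 57.4% of all genes. They included 5 of the 7 beta ring genes, all 3 inducible ones, 1 of the 6 ATPases, 3 of the 11 non-ATPases and 2 of the 7 alpha ring genes. Those 5 beta ring genes were higher by only 0.03 to 0.08. Psmc6 was 1.22 higher on the first array and 1.19 lower on the second, Psma3 0.98 higher and 0.90 lower, and Psmd14 0.82 higher and 1.04 lower. At the other end, Psmb9 was 0.72 lower and 0.20 higher. Lower on the first and higher on the second array were 19 members (38.8%), against 49.1% of all genes, and the reverse held for 19 members (38.8%), against 26.7% of all genes.

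**Figure D5:**
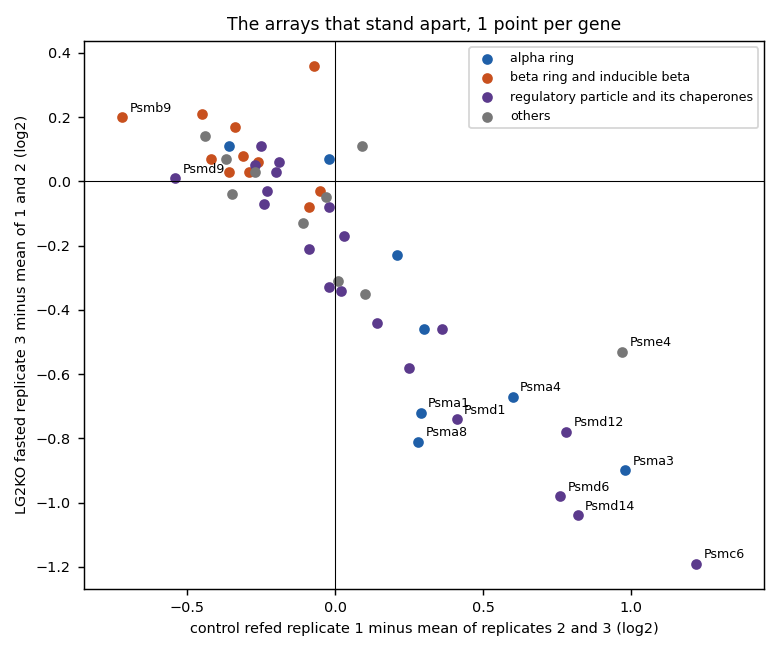
Deviation of each member on control refed replicate 1 (x axis) and on LG2KO fasted replicate 3 (y axis), each from the mean of the other arrays of its group, in log2 units. Members run from upper left to lower right: 19 are higher on the first and lower on the second array (26.7% of all genes are), 19 the reverse (49.1% of all genes), and 11 have the same sign on both.

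Control refed replicate 1 gave the highest of the 12 values for 16 members (32.7%), against 12.9% of all genes, and the lowest for 5 members (10.2%), against 23.9%. LG2KO fasted replicate 3 gave the lowest value for 24 members (49%), against 13.9% of all genes, and the highest for 1 (2.04%), against 19.7%. The difference between 3′ and 5′ probe sets of actin, a measure of RNA integrity, was 0.75 on control refed replicate 1, against 0.68 and 0.66 in its group. It was 0.76 on LG2KO fasted replicate 3, against 0.81 and 0.82, and the 12 arrays ran from 0.65 to 0.82. For Gapdh it was -0.05 on control refed replicate 1, the highest of the 12 values, against -0.13 and -0.09 in its group. On LG2KO fasted replicate 3 it was -0.07, against -0.12 and -0.07. The part of RNA quality in these shifts was not tested.

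Proteins that work with the proteasome under other names were counted in lists. In the averaged refeeding comparison 7.86% of all genes rose and 5.77% fell, and with lists this short a single call can lie near those shares. In the averaged refeeding comparison, 1 of the 7 further proteasome proteins measured rose: Pomp, which matures the core particle, by 0.17 ± 0.05 (adjusted p = 0.0376). Usp14, a deubiquitinase of the base, gave 0.38 ± 0.19 (adjusted p = 0.27). Of 6 shuttle factors, which carry ubiquitinated proteins to the particle, Rad23b and Ubqln4 rose and Zfand5 fell. Rad23b rose by 0.46 ± 0.09 (adjusted p = 0.00312) and, averaged over feeding, was lower in LG2KO by 0.46 ± 0.09 (adjusted p = 0.0235). Of 10 genes of the unfoldase p97 and its cofactors 3 rose: Vcp by 0.37 ± 0.09, Nsfl1c by 0.34 ± 0.06 and Ubxn4 by 0.66 ± 0.14. Of 4 genes of ubiquitin activation and transfer, Ube2n rose by 0.34 ± 0.08 and the ligase Ube4b fell by 0.56 ± 0.09.

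Among Nfe2l1, Nfe2l2 and 7 genes of their pathway, 4 rose and 1 fell averaged over the genotypes (44.4% and 11.1%). Of all genes, 7.86% rose and 5.77% fell in that comparison. Nfe2l1, known for restoring proteasome synthesis when the particle is inhibited, had 8.51, 8.47 and 8.42 in control refed and 8.75, 8.94 and 8.88 in control fasted liver. Its control groups did not overlap, and it fell by 0.39 ± 0.09 (adjusted p = 0.0262), while the difference in LG2KO was -0.06 ± 0.09 (adjusted p = 0.854). Between genotypes that response differed by 0.32 ± 0.13, which did not pass (adjusted p = 0.99). Nfe2l2 gave 0.05 ± 0.11 averaged over the genotypes. The 4 that rose were Keap1, the repressor of Nfe2l2 (0.32 ± 0.07), Gclc and Gclm, subunits of the enzyme that starts glutathione synthesis (0.43 ± 0.12 and 0.30 ± 0.07), and Srxn1, which repairs oxidised peroxiredoxins (0.38 ± 0.08).

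Of 9 genes of antigen presentation induced by interferon, 2 rose and 1 fell averaged over the genotypes. For these genes and the cell type markers below, the shares of all genes were 7.86% that rose and 5.77% that fell. Those that rose, Calr by 0.72 ± 0.05 and Pdia3 by 0.99 ± 0.13, are also general chaperones of the endoplasmic reticulum. The one that fell was Nlrc5, the activator of class I genes, by 0.70 ± 0.14. Tap1 and B2m gave -0.13 ± 0.10 and -0.03 ± 0.04. Beside the rise of Psmb10, 1 of 9 macrophage markers (Cd68) and 2 of 9 lymphocyte markers (Cd79b and Ltb) rose and 0 fell. The lymphocyte markers averaged 5.29 to 5.58 on refed and 5.2 to 5.46 on fasted arrays, and the macrophage markers 8.20 to 8.57 and 8 to 8.76. Of 8 endothelial markers 1 rose and 1 fell, of 7 hepatocyte markers 2 fell (Cps1 and Tdo2), and of 7 markers of the exocrine pancreas 0 passed. The part of immune cells in the level of Psmb10 was not tested.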

How the data were processed

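Liver RNA was measured on an Affymetrix mouse array with 45101 probe sets. The authors deposited log2 expression values made with RMA, per the submitters' processing notes; its version and a genome build were not given in the sources used here. RMA puts all arrays on 1 distribution, so a change common to all genes could not be seen. Of the probe sets, 34958 carried 1 gene symbol in the platform annotation, 932 several (left out), and 9211 are not listed there and stay unnamed here. Each symbol was represented by its brightest probe set over the 12 arrays. The 49 members had 103 probe sets, and 27 had more than 1.

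Groups came from titles, genotype and diet labels. In R 4.3.3, limma 3.58.1 (lmFit, then eBayes along an intensity trend) fitted all 12 arrays as 4 group means, which left 8 residual degrees of freedom. Two-sided p-values were adjusted after Benjamini and Hochberg across the 18194 genes in each of 7 comparisons. Called means an adjusted p below 0.05. The procedure was tested on simulated data, but no result of that test is given here and no error rate is claimed from it. The number of arrays limits the precision.

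Any member could be named. In full were given members that passed (at most 10 per comparison), those with catalytic, inducible, activator or chaperone roles, and, from each further list, at most 4 that passed. Psmd12, Psmb4 and the members shown for the arrays that stood apart were picked after their values were seen. The members and lists were chosen with earlier results of these data known. Alternatives were other variance priors, array weights, probe set means, median centring, brighter genes alone, fewer groups, a replicate block and leaving out arrays.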

Additional observations from a re-analysis of the deposited data

How the results depend on the processing

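With limma array weights, the counts of members called rose to 24 for refeeding in control, 16 in LG2KO, 4 between genotypes refed, 1 fasted and 6 averaged over feeding. With the mean of all probe sets of a gene they were 5, 3 and 0 for refeeding in control, refeeding in LG2KO and genotype averaged. Dim second probe sets enter these means, such as that of Psmd2 at a level of 3.51. In the averaged refeeding comparison Psma1, Psmb4, Psmd4, Psmd7 and Psme3 missed the threshold with these means. Without the arrays that stood apart the counts for the same 3 comparisons were 20, 14 and 3. In those fits 6.33% of all genes rose and 5.77% fell in control, and 7.74% rose and 9.78% fell in LG2KO. Averaged over feeding, 0.841% of all genes were higher and 0.451% lower in LG2KO. The averaged genotype call was 0 without the intensity trend, with each array centred on its median and with the replicate block. Leaving out 1 array at a time gave 4 to 17 calls for refeeding in control, 2 to 13 in LG2KO and 0 to 5 for genotype averaged, and 15 to 21 for refeeding averaged. With a replicate block, refeeding gave 9 calls in control, 8 in LG2KO and 20 averaged. Apart from the fits without the arrays that stood apart, the counts in this section are of members alone. The shares of all genes under the same settings are not given here, so these counts are not read as a result about the members. Same-numbered arrays correlated between -0.46 and 0.77, so the numbers were not taken to pair them. No named difference turned its sign past the threshold. Of the 49 members, 3 lie below the median of all genes, where signal near background limits what can be seen; the cause of the other changes was not tested.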
